A study of Arabidopsis thaliana with 12 samples.

Results

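The difference between the mutant npf8.4-1 and its reference accession Col-0 was examined in young Arabidopsis thaliana leaves that had been without nitrogen for 2 days. The members are the libraries whose labels give day 2, 3 of npf8.4-1 and 3 of Col-0, which makes 6 of the 12 libraries of the series. Plants of both genotypes were raised hydroponically with 5 mM KNO3 as nitrogen source for 15 days and then moved to medium without nitrogen, and each library was made from the pooled leaves of 15 plants. The other 6 libraries, 3 per genotype, were taken at day 0, before the transfer, and are used here to place the day 2 difference. All plants of both genotypes at day 2 shared the depletion and were 2 days older than those at day 0, so a difference between days holds age as well. The mutant is represented by a single allele, and no source used here gives the nature of its lesion.

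NPF8.4, also named PTR4, is a peptide-transporter-type member of NPF, a large plant family whose members carry nitrate, peptides, hormones and other small molecules across membranes, and it is a protein of the tonoplast, the membrane around the vacuole. In leaves, nitrate is reduced to nitrite by nitrate reductase in the cytosol and then to ammonium by nitrite reductase in the chloroplast. Nitrate also acts as a signal: it raises transcripts of these enzymes, of the proteins that supply their electrons and cofactors, and of a set of transcription factors, among them LBD37, LBD38 and LBD39, which repress nitrate-responsive genes.

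The 12 libraries held 28761674 to 34282716 exon reads. On the first principal component of log2 CPM (counts per 1000000 reads of the scaled library total), which carried 75.6% of the variance, the day 2 library closest to day 0 was the third in both genotypes (49.7 for Col-0, 51.4 for the mutant, the other 4 between 66.4 and 82.9). Calls with and without this pair of libraries are therefore given beside most lists and families that had any. They are also given for some of the single genes named by the size of their change. Transcripts of mesophyll, stomata, vasculature and epidermis were present in every library with 0 members called at day 2 (in edgeR or DESeq2, 3 stomatal genes at an unadjusted p under 0.05), and the shoot meristem genes STM and WUS and the root hair gene EXPA7 had 0 reads in all. Other root and flower markers were low but not absent: at day 2 the 3 Col-0 and the 3 mutant libraries together held 98 and 84 reads of BGLU23 and 17 and 13 of WOX5 (root), and 105 and 154 of AG, 191 and 273 of SEP1 (AT5G15800) and 62 and 86 of SEP3 (flower). The root and flower lists had 0 calls in edgeR, at an unadjusted p under 0.05 and in DESeq2. In whole leaves, fewer cells of a type and less RNA per cell cannot be told apart.

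NPF8.4 itself (AT2G02020, chromosome 2, bases 478977 to 481185, TAIR10) had 568, 479 and 342 reads in the 3 Col-0 libraries at day 2 and 22, 47 and 22 reads in the 3 npf8.4-1 libraries. The groups lay far apart, and the mutant kept a low level of reads. On the log2 scale the difference was −4.11 (SE 0.31), with an adjusted p of 6.35e-05 in edgeR's quasi-likelihood test, and it passed in all 20 alternative analyses. Per length, the level was 13.4 ± 3.32 TPM in Col-0 and 0.781 ± 0.359 TPM in npf8.4-1 (SD, n = 3). The other 4 members of the NPF8 branch did not pass the test. NPF8.3, the close paralog that lies next to NPF8.4 on the chromosome, read 48.0, 43.6 and 43.3 CPM in Col-0 and 49.7, 49.4 and 46.0 CPM in the mutant, a log2 difference of 0.10 with a 95% interval of −0.04 to 0.25. NPF8.1 differed by 0.32 (interval 0.04 to 0.60, adjusted p = 0.320 in edgeR), NPF8.5 by 0.16 (−0.12 to 0.44) and NPF8.2 by 0.20 (−0.30 to 0.70). No source used here says how the counting shared reads between these paralogs.

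Across the leaf transcriptome, 279 of 19416 tested genes (1.44%) passed an adjusted p of 0.05 in edgeR at day 2 (2462, or 12.7%, had an unadjusted p under 0.05), and 185 of them were lower in npf8.4-1 (0.953%) against 94 higher (0.484%). A change of at least 2-fold was seen in 132 of them (0.68% of all tested genes): 106 fell that far (0.546%) and 26 rose (0.134%). In each of the 279, the 3 libraries of a genotype lay on the same side of the 3 of the other; over all tested genes 3118 (16.1%) did so, 1806 higher in the mutant (9.3%) and 1312 lower (6.76%). The genes that fell included nitrate reductases and nitrite reductase, nitrate-linked regulators and some trehalose phosphate synthases. They also included 4 of 30 tested calcium-dependent kinases (family median −0.06) and the immune regulators PAD4, EDS1 and SAG101. The genes that rose included the glucosinolate regulator MYB34, the anthocyanin regulator PAP1 and 3 of 18 tested expansins (family median 0.05). Without the third library of both groups 44 genes passed (0.225% of 19598), 12 higher (0.0612%) and 32 lower (0.163%), of which 42 were among the 279 (15.1% of the 279 and 95.5% of the 44). All 279 kept their sign in that fit, and none changed sign in any of the 20 alternatives. The shares of 0.953% lower and 0.484% higher are the background for the counts of lists and families below. Over all 19416 tested genes, 10427 differences were positive and 8987 negative.

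**Figure D1:**
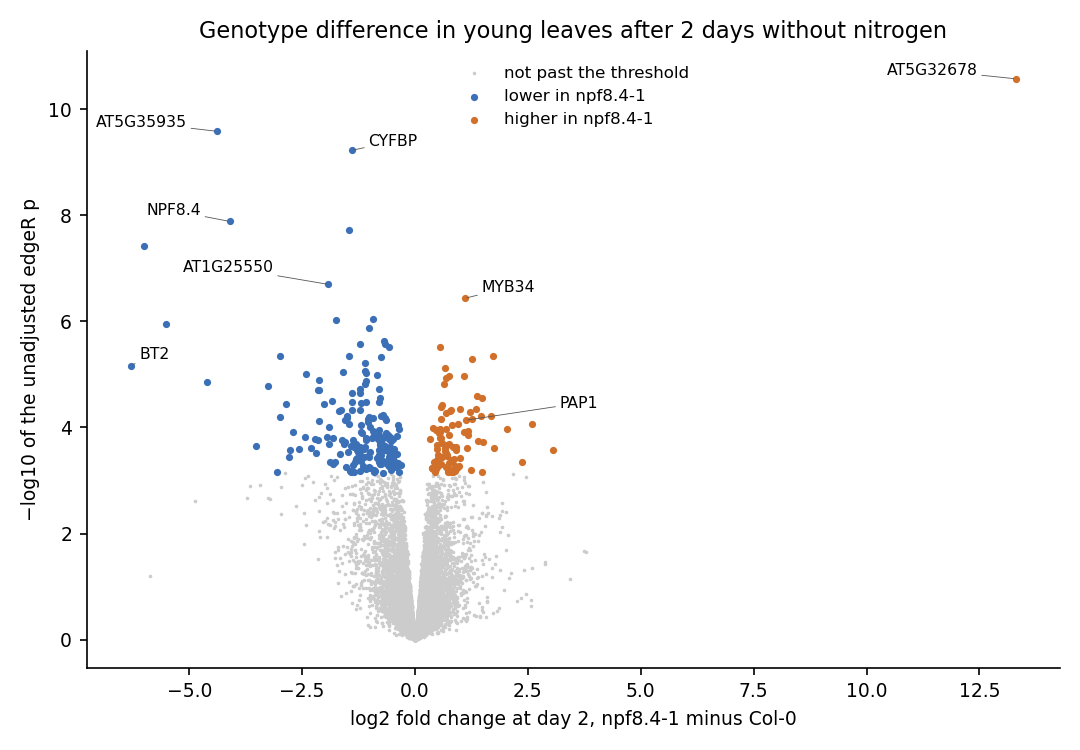
Each point is 1 of the 19416 tested genes, placed by its log2 fold change at day 2 (npf8.4-1 minus Col-0, x axis) and the −log10 of its unadjusted edgeR p (y axis). The 185 genes past the threshold to the left outnumber the 94 to the right, and AT5G32678, which had 0 reads in Col-0, lies alone at 13.30.

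The nitrate genes were the list with the most calls. Of the 29 tested members of the nitrate response and reduction list, 12 were lower in npf8.4-1 (the background for lower genes is 0.953%) and 0 were higher, with a median log2 difference of −0.48 against 0.02 over all genes. A further 4 members had all 3 mutant libraries below all 3 Col-0 libraries without passing, so 16 members in all showed that order. The day 0 difference of the same list had a median of −0.35 with 1 call.

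Both nitrate reductase genes and the nitrite reductase gene fell. NIA2, the main nitrate reductase of leaves, read 909, 579 and 796 CPM in Col-0 and 385, 281 and 315 CPM in npf8.4-1. The lowest Col-0 library stood well above the highest mutant library, and the log2 difference was −1.22 (SE 0.18, adjusted p = 0.00899 in edgeR). NIA1, the other nitrate reductase, read 215, 109 and 145 CPM in Col-0 and 67.0, 53.9 and 61.8 CPM in the mutant, a difference of −1.36 (SE 0.25, adjusted p = 0.0291 in edgeR). NIR1, the chloroplast nitrite reductase, read 363, 210 and 292 CPM against 141, 123 and 145 CPM, a difference of −1.08 (SE 0.17, adjusted p = 0.0125 in edgeR). Without the third library of both groups the differences were −1.18 for NIA2, −1.44 for NIA1 and −1.13 for NIR1 and did not pass (adjusted p = 0.116, 0.249 and 0.113 in edgeR). In all 3 genes the Col-0 libraries varied more than the mutant libraries, and the second Col-0 library was the lowest of its group. Per length, the levels were 389 ± 90.0 TPM in Col-0 and 170 ± 26.1 TPM in npf8.4-1 for NIA2, 81.6 ± 30.9 and 32.1 ± 3.13 TPM for NIA1, and 216 ± 61.7 and 104 ± 7.74 TPM for NIR1 (SD, n = 3). NIA2 was thus the most abundant of these 3 transcripts in each genotype.

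The list also holds UPM1 and G6PD3, and both fell. UPM1, which makes the precursor of siroheme, the cofactor of nitrite reductase, read 231, 101 and 136 CPM in Col-0 and 62.1, 52.5 and 55.1 CPM in the mutant, a log2 difference of −1.46 (SE 0.24, adjusted p = 0.0191 in edgeR). G6PD3, a plastid glucose-6-phosphate dehydrogenase that yields NADPH, read 12.2, 8.80 and 8.12 CPM against 5.14, 5.38 and 6.26 CPM, a difference of −0.80 (SE 0.15, adjusted p = 0.0218 in edgeR).

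**Figure D2:**
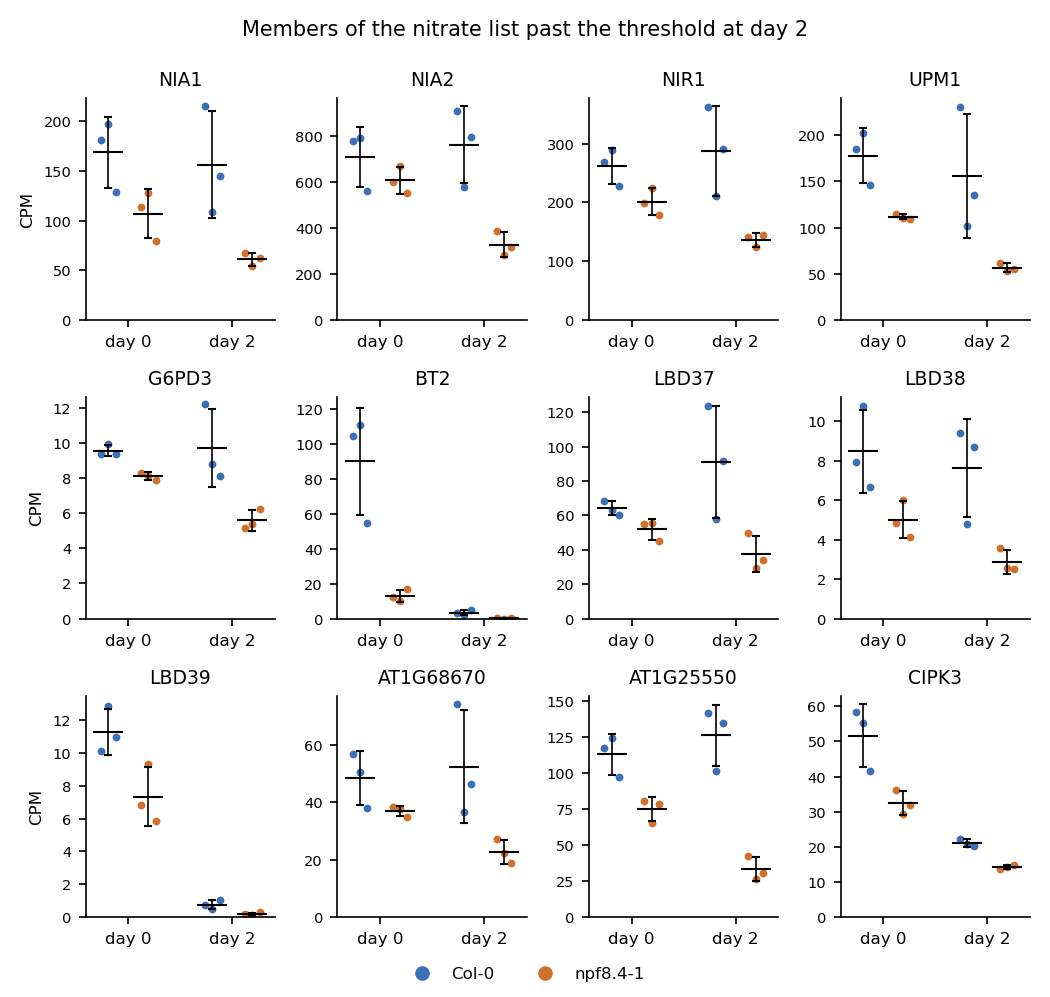
Level in CPM (y axis) of the 12 nitrate-list genes past the threshold at day 2, by day and genotype; points are the 3 libraries of a group, and the horizontal and vertical bars are their mean and SD. At day 2 the 3 mutant libraries lie below the 3 Col-0 libraries in each panel, for NIA2 at 281 to 385 CPM against 579 to 909 CPM.

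Among the regulators, AT1G25550, annotated as a myb-like transcription factor, read 142, 102 and 135 CPM in Col-0 and 42.4, 26.4 and 30.9 CPM in npf8.4-1. Each mutant library lay far below each Col-0 library, and the log2 difference of −1.92 (SE 0.18, adjusted p = 0.000558 in edgeR) passed in all 20 alternatives. AT1G68670, of the same annotated family, read 74.2, 36.4 and 46.3 CPM against 27.2, 22.3 and 18.8 CPM, a difference of −1.20 (SE 0.24, adjusted p = 0.0381 in edgeR) that passed in 9 of the 20. BT2, a BTB and TAZ domain scaffold protein, was low in both genotypes at day 2, with 98, 73 and 128 reads in Col-0 and 1, 0 and 3 reads in the mutant. Its log2 difference of −6.29 (SE 0.77, adjusted p = 0.00550 in edgeR) therefore rests on few mutant reads. At day 0, with nitrate, BT2 stood at 104, 111 and 54.8 CPM in Col-0 and 12.1, 10.2 and 16.9 CPM in the mutant, so the mutant was the lower genotype at both days.

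The LBD repressors fell as well, each at its own level. LBD37 read 124, 58.1 and 91.9 CPM in Col-0 and 49.5, 29.4 and 33.8 CPM in the mutant (log2 difference −1.28, SE 0.25, adjusted p = 0.0352 in edgeR). LBD38 read 9.42, 4.78 and 8.71 CPM against 3.59, 2.55 and 2.52 CPM (−1.40, SE 0.27, adjusted p = 0.0289 in edgeR). LBD39 was scarce at day 2, at 0.737, 0.487 and 1.07 CPM against 0.172, 0.140 and 0.300 CPM (−1.87, SE 0.40, adjusted p = 0.0384 in edgeR). The groups did not overlap for any of the 3, and for LBD37 the lowest Col-0 library, the second, lay not far above the highest mutant library. CIPK3, a protein kinase that works with calcium sensors, was less variable, at 22.3, 20.8 and 20.3 CPM against 13.6, 14.4 and 14.7 CPM (−0.57, SE 0.12, adjusted p = 0.0381 in edgeR).

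The 17 other tested members of the list did not pass. NLP7, the transcription factor that senses nitrate, differed by −0.48 (95% interval −0.74 to −0.22, adjusted p = 0.0769 in edgeR). BT4, of the same family as BT2, read 19.2, 40.7 and 83.4 CPM in Col-0 and 10.9, 11.7 and 16.0 CPM in the mutant, and its large spread in Col-0 left it at an adjusted p of 0.0814 in edgeR. The number of lower members depended on single libraries: it was 2 without the second mutant library, 5 without the third, 7 without the first mutant or the third Col-0 library, 2 (AT1G25550 and G6PD3) without the third library of both groups, 4 in a fit of the day 2 libraries alone and 15 in DESeq2. The list's median was −0.52 without the third libraries.

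Of the 17 tested nitrate transporter genes 1 passed, and it was higher in the mutant (the background for higher genes is 0.484%). NPF6.4, a nitrate transporter expressed in leaves, rose from 36.8, 45.4 and 40.7 CPM in Col-0 to 67.6, 76.4 and 64.6 CPM in npf8.4-1 (log2 difference 0.76, SE 0.15, adjusted p = 0.0277 in edgeR). The call was lost without the first or the third Col-0 library, without any 1 of the 3 mutant libraries, and without the third library of both groups (0.80, adjusted p = 0.161 in edgeR). NRT2.1, a high-affinity transporter that acts mainly in roots, stood at 2.79, 0.761 and 2.35 CPM in Col-0 and 0.374, 0.168 and 0.809 CPM in the mutant, groups that overlap, and did not pass (adjusted p = 0.0872 in edgeR). The list's median was −0.04, and the CC-type glutaredoxins, a family with many nitrogen-responsive members, had 0 calls among 14 tested genes in edgeR, 2 at an unadjusted p under 0.05 and 0 in DESeq2.

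The stretches just upstream of 5 of the genes that fell are printed. NIA1, NIA2 and NIR1 stand for nitrate reduction and AT1G25550 for its regulators, while CYP81F2 was chosen by the motifs in its stretch. Each is the 200 bases before the annotated start of the gene, on the strand of the gene, from the RefSeq TAIR10.1 sequence, whose chromosomes are those of the TAIR10 build of the files. Capitals mark W-boxes (TTGACC or TTGACT on either strand) in NIA2, NIR1 and CYP81F2, and as-1 cores (TGACG on either strand) in AT1G25550. CYP81F2 was taken for having the most W-boxes, so their presence there follows from the choice. Of the 32 members of the gene lists that were lower at day 2, 9 had a W-box in this stretch. Only 2 of them, CYP81F2 and CKX4, had 2 or more. The stretch of NIA1 holds 0 of the motifs searched and has no capitals.
NIA1 (chr1:29239485-29239684, minus strand): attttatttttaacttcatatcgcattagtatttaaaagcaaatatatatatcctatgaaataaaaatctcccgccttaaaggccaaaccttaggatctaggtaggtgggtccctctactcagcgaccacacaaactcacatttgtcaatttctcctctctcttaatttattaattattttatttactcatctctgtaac
NIA2 (chr1:14158252-14158451, plus strand): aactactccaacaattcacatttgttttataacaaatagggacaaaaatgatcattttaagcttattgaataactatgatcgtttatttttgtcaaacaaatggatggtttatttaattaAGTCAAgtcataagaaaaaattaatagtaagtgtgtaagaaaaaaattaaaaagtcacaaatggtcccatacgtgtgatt
NIR1 (chr2:6810195-6810394, plus strand): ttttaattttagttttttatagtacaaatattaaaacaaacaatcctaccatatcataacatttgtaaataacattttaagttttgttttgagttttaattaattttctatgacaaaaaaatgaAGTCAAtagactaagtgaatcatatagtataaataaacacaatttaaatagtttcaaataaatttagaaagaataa
AT1G25550 (chr1:8976126-8976325, plus strand): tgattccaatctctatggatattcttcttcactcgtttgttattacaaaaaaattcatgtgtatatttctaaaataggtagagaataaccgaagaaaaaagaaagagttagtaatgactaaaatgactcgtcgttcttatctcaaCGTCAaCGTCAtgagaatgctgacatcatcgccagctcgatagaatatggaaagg
CYP81F2 (chr5:23187640-23187839, plus strand): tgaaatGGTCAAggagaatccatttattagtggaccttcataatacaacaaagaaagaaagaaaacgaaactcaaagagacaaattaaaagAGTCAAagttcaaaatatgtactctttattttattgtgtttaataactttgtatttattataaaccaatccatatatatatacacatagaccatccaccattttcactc

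The W-box, the letters bound by WRKY factors, began 80 bases before the start in NIA2, 76 in NIR1, and 194 and 109 in CYP81F2, and the as-1 cores of AT1G25550 began 55 and 49 bases before its start. In windows of 300 bases (250 before to 50 after the start), a W-box on either strand was present in 84 of the 185 lower genes (45.4%), in 27 of the 94 higher genes (28.7%) and in 6240 of all 19347 tested genes with a window (32.3%). The as-1 core was present in 22.7% of lower, 18.1% of higher and 23.7% of all genes, and the G-box CACGTG in 7.03%, 6.38% and 8.87%. The site II motif TGGGCC was present in 7.57%, 5.32% and 19.4%, and the core of the evening element, AATATCT, in 12.4%, 10.6% and 11.8%. Of the 12 nitrate genes that fell, 4 had a W-box and 4 an as-1 core in the window. A pair of triplets in the spacing described for nitrate response elements, CTT and AAG with 10 bases between, was added after the values were seen and was present in 9.73% of lower, 3.19% of higher and 9.43% of all windows. These matches describe the letters of the windows only.

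Of ammonium and amide metabolism, 2 of 19 tested genes fell and 0 rose (the background is 0.953% lower and 0.484% higher). The plasma membrane ammonium transporter AMT1;1 read 111, 88.8 and 114 CPM in Col-0 and 80.2, 72.1 and 67.2 CPM in the mutant (log2 difference −0.52, SE 0.11, adjusted p = 0.0384 in edgeR), and AMT2;1, another ammonium transporter, read 24.6, 23.5 and 25.5 CPM against 16.3, 14.2 and 15.7 CPM (−0.67, SE 0.12, adjusted p = 0.0169 in edgeR). Both passed with all libraries and neither without the third library of both groups. The glutamine synthetase gene GLN1;1 differed by −0.23 (95% interval −0.44 to −0.03, adjusted p = 0.313 in edgeR), and the asparagine synthetase gene ASN1 by −0.55 (−1.76 to 0.65), with overlapping groups. Of the 7 tested amino acid transporters AAP5, an amino acid permease, fell from 25.9, 34.4 and 35.7 CPM to 21.2, 17.5 and 17.7 CPM (−0.77, SE 0.15, adjusted p = 0.0280 in edgeR). It passed in 13 of the 20 alternatives. The call was lost with a block for replicate number, in the fit of the day 2 libraries alone and without the second or the third library of either genotype. It was also lost without the third library of both groups (−0.65, adjusted p = 0.191 in edgeR).

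In carbon metabolism the largest and steadiest difference was in CYFBP, the cytosolic fructose-1,6-bisphosphatase of sucrose synthesis. It read 311, 342 and 336 CPM in Col-0 and 123, 129 and 123 CPM in npf8.4-1, and its replicates varied little in either genotype. The log2 difference was −1.40 (SE 0.09, adjusted p = 3.88e-06 in edgeR) and passed in all 20 alternatives. It stood at −1.45 at day 0, so the difference between the days was 0.05 (interaction unadjusted p = 0.688 in edgeR). The sucrose and trehalose list had 4 lower and 0 higher genes of 19 tested (background 0.953% and 0.484%), and 1 lower without the third libraries. Its other 3 calls were trehalose phosphate synthase genes of the class whose enzymatic activity is doubtful. TPS8 read 198, 175 and 187 CPM in Col-0 and 102, 74.3 and 63.5 CPM in the mutant (−1.22, SE 0.20, adjusted p = 0.0147 in edgeR). TPS11 differed by −1.20 (SE 0.18, adjusted p = 0.0126 in edgeR) and TPS6 by −0.36 (SE 0.08, adjusted p = 0.0486 in edgeR).

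The low-energy list, genes that respond when sugar is short, had 2 lower of 17 tested (background 0.953%). These were the transcription factors bZIP1, at 11.2, 9.65 and 13.9 CPM against 6.98, 5.10 and 4.97 CPM (−1.02, adjusted p = 0.0165 in edgeR), and bZIP53, at 51.1, 89.8 and 98.3 CPM against 37.0, 28.4 and 39.3 CPM (−1.19, adjusted p = 0.0352 in edgeR). Neither passed without the third libraries. The sucrose symporter SUC1 fell (−0.54, SE 0.12, adjusted p = 0.0406 in edgeR), 1 of 20 tested sugar transporters. In the other direction the raffinose synthase gene RS5 rose by 0.66 (SE 0.13, adjusted p = 0.0291 in edgeR), 1 of 7 raffinose genes, and the beta-amylase gene BAM6 rose by 0.92 (SE 0.18, adjusted p = 0.0291 in edgeR), 1 of 20 genes of starch breakdown. Each of SUC1, RS5 and BAM6 passed in 12 of the 20 alternatives, and none of the 3 in the fit of the day 2 libraries alone or without the third library of both groups (adjusted p = 0.271, 0.181 and 0.139 in edgeR). Of photorespiration 0 of 26 genes passed in edgeR (3 at an unadjusted p under 0.05, 0 in DESeq2). Its median was 0.14, with 22 positive and 4 negative differences. Its glycerate kinase gene GLYK differed by 0.05 (95% interval −0.16 to 0.26) and the hydroxypyruvate reductase gene HPR1 by 0.16 (−0.05 to 0.37).

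Specialized metabolism held several of the increases. MYB34, an activator of indole glucosinolate synthesis, read 10.7, 12.3 and 10.4 CPM in Col-0 and 20.2, 26.5 and 25.4 CPM in npf8.4-1. The mutant libraries all lay above the Col-0 libraries, and the log2 difference of 1.105 (SE 0.12, adjusted p = 0.000894 in edgeR) passed in all 20 alternatives, also without the third library of both groups. CYP81F2, which hydroxylates indole glucosinolates further down the same branch, went the other way, from 33.1, 13.97 and 9.33 CPM in Col-0 to 2.96, 3.03 and 2.097 CPM in the mutant (−2.80, SE 0.54, adjusted p = 0.0344 in edgeR). Its Col-0 libraries differed among themselves by more than 3-fold, and the call held in 10 of the 20 alternatives and not without the third libraries (adjusted p = 0.136 in edgeR). Of 22 tested genes of aliphatic glucosinolates 2 rose and 0 fell (background 0.484% and 0.953%). All 22 differences were positive, with a median of 0.43, beside 10427 positive ones among all 19416 tested genes. The calls were SOT18, the sulfotransferase of the last core step, at 52.8, 48.7 and 40.8 CPM against 72.5, 71.8 and 68.2 CPM (0.58, SE 0.10, adjusted p = 0.0170 in edgeR), and the glucosyltransferase UGT74B1 (0.46, SE 0.10, adjusted p = 0.0464 in edgeR). Without the third libraries 0 of the 22 passed and the median was 0.36. In the flavonoid list 1 of 31 passed: PAP1 (AT1G56650), an activator of anthocyanin synthesis, rose from 11.9, 10.99 and 8.04 CPM to 24.9, 22.8 and 19.95 CPM (1.13, SE 0.20, adjusted p = 0.0172 in edgeR). This call was lost without the third Col-0 library, without the second mutant library and without the third library of both groups (1.05, adjusted p = 0.0780 in edgeR). None of the anthocyanin enzymes in the list passed.

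The immune regulators PAD4, EDS1 and SAG101, lipase-like proteins that work together upstream of salicylate, were lower in the mutant at day 2. They were the 3 lower of 12 tested members of the list named for salicylate and pipecolate synthesis, with 0 higher (background 0.953% and 0.484%). The other 9 tested members of the list did not pass. Of the 12 differences 8 were negative and 4 positive, with a median of −0.11. All 3 mutant libraries lay below all 3 Col-0 libraries in 5 of the 12 genes and above them in 2. PAD4 read 42.2, 43.5 and 28.4 CPM in Col-0 and 21.9, 18.6 and 15.7 CPM in npf8.4-1 (log2 difference −1.02, SE 0.21, adjusted p = 0.0344 in edgeR). EDS1 read 48.2, 54.4 and 39.3 CPM against 32.4, 33.6 and 30.02 CPM (−0.56, SE 0.12, adjusted p = 0.0352 in edgeR). SAG101 read 17.8, 19.5 and 16.6 CPM against 11.3, 12.5 and 12.3 CPM (−0.58, SE 0.11, adjusted p = 0.0245 in edgeR). At day 0 the same genes differed by 0.30, 0.21 and 0.19 without passing. The change between days had unadjusted interaction p-values of 0.000950, 0.000533 and 0.000328 in edgeR, none of which passed after adjustment. Without the third libraries EDS1 remained past the threshold, and PAD4 and SAG101 had differences of −1.09 and −0.66 that did not pass.

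**Figure D3:**
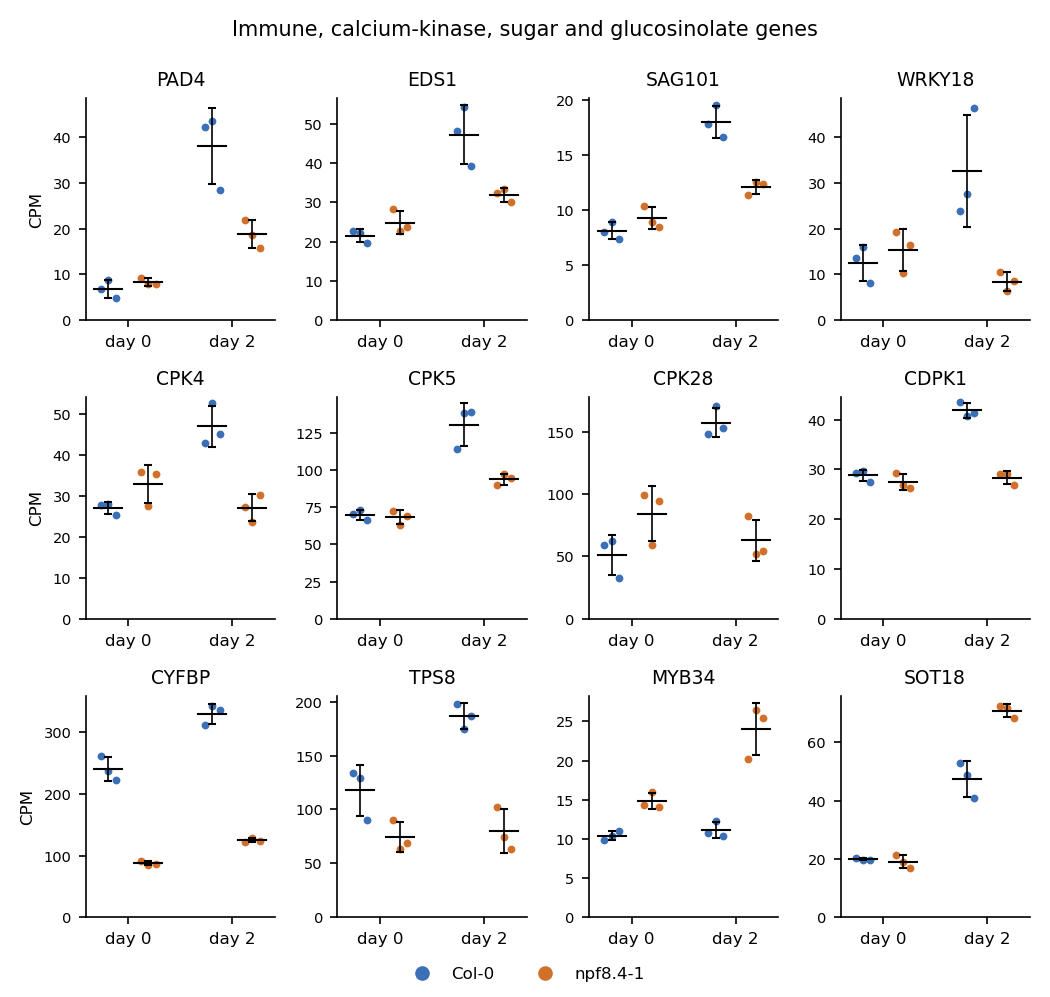
Level in CPM (y axis) of 12 immune, calcium-kinase, sugar and glucosinolate genes by day and genotype; points are the 3 libraries of a group, and the horizontal and vertical bars are their mean and SD. PAD4, EDS1, SAG101 and CPK4 differ by 0.19 to 0.30 (log2) at day 0 without passing the test and are lower in npf8.4-1 at day 2, while CYFBP is lower in npf8.4-1 at both days.

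Of 15 tested salicylate output genes 1 fell: WRKY18, a pathogen-responsive transcription factor, read 23.8, 27.6 and 46.5 CPM in Col-0 and 10.5, 6.28 and 8.42 CPM in the mutant (−1.96, SE 0.34, adjusted p = 0.0245 in edgeR). It did not pass without the third Col-0 library, without the second or the third mutant library, or without the third library of both groups (−1.63, adjusted p = 0.185 in edgeR). The salicylate output list had 13 negative differences and a median of −0.31, beside 0.53 at day 0. Of its members 5 had an unadjusted p under 0.05 in edgeR and 3 passed in DESeq2. The 16 intracellular NLR receptor genes of the fixed list had 0 calls in edgeR (4 at an unadjusted p under 0.05, 3 in DESeq2), a median of −0.20 and 15 negative differences. Calcium-dependent protein kinases, a family picked after the values were seen, had 4 lower and 0 higher of 30 tested (background 0.953% and 0.484%). Without the third libraries 2 were lower. CPK28 read 148, 171 and 153 CPM in Col-0 and 82.2, 52.2 and 54.5 CPM in the mutant (−1.32, SE 0.27, adjusted p = 0.0385 in edgeR), CPK4 differed by −0.80 (SE 0.12, adjusted p = 0.00899 in edgeR), CDPK1 by −0.57 (SE 0.07, adjusted p = 0.00355 in edgeR) and CPK5 by −0.48 (SE 0.09, adjusted p = 0.0249 in edgeR).

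The rapid touch and wounding list, transcripts that respond to handling within minutes, was measured beside these genes. Its 14 members had 0 calls in edgeR (6 at an unadjusted p under 0.05, and 4 in DESeq2, all lower), and all 14 differences were negative at day 2 with a median of −0.50, and their summed level was 3849, 4221 and 3623 CPM in Col-0 against 2761, 1839 and 1991 CPM in npf8.4-1. At day 0 the sums were 2391, 2178 and 1097 CPM in Col-0 and 2677, 2060 and 2980 CPM in the mutant, with a median of 0.43. The part of this difference in the immune and calcium results was not tested. The heat and protein folding list had a median of 1.11 with 0 calls of 9 in edgeR, at an unadjusted p under 0.05 and in DESeq2.

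The largest decreases by the naming rule were spread over several kinds of gene. PP2-B13, a phloem lectin-like F-box protein gene, read 18.4, 8.28 and 7.13 CPM in Col-0 and 1.753, 1.01 and 0.749 CPM in npf8.4-1 (−3.26, SE 0.45, adjusted p = 0.00807 in edgeR). WAKL2, a wall-associated kinase-like gene, read 5.93, 5.17 and 4.41 CPM against 1.09, 0.308 and 0.539 CPM (−2.99, SE 0.39, adjusted p = 0.00429 in edgeR) and passed in all 20 alternatives. ATPMEPCRB, annotated with the pectin methylesterases and their inhibitors, read 59.2, 66.3 and 88.9 CPM against 15.8, 16.8 and 16.8 CPM (−2.12, SE 0.28, adjusted p = 0.00737 in edgeR). XTH18, a xyloglucan-modifying enzyme of the wall, read 4.90, 10.9 and 20.2 CPM against 2.16, 0.925 and 1.26 CPM, and its wide Col-0 spread left the call (−3.05, SE 0.64, adjusted p = 0.0486 in edgeR) standing in 6 of the 20 alternatives. PGSIP7, a glycosyltransferase of the glycogenin-like type, differed by −2.12 (SE 0.35) and the transcription factor MYB70 by −2.21 (SE 0.39). Of those without a symbol, AT5G35935 (−4.39), AT1G33760 (−2.99) and the ankyrin repeat genes AT5G54710 (−2.30) and AT5G54720 (−2.15), which are neighbours, were lower, as was AT4G37240 (−2.15). In the fit without the third library of both groups WAKL2 and AT5G35935 still passed. ATPMEPCRB, MYB70, AT1G33760, AT5G54710 and AT5G54720 did not pass in that fit.

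The largest increases were smaller, AT5G32678 aside. AT5G32678, an uncharacterized gene on chromosome 5 (bases 12326881 to 12329676), had 0 reads in all 3 Col-0 libraries and 1457, 1237 and 1411 reads in the mutant at day 2, at least 1203-fold higher when the 3 Col-0 libraries together are set to 3 counts. AT3G09450, of the fusaric acid resistance family, read 1.54, 1.07 and 0.514 CPM in Col-0 and 7.501, 6.72 and 4.91 CPM in npf8.4-1 (2.599, SE 0.45, adjusted p = 0.0191 in edgeR). AT2G44940, of the integrase-type DNA-binding family, rose by 1.72, AT3G15310 by 1.68 and AT3G56260 by 1.49. ASG8 rose by 1.51 (SE 0.27) and MYB7, a repressor of the MYB family, by 1.41 (SE 0.27). BBX29, a B-box zinc finger protein, read 10.7, 12.8 and 6.28 CPM against 28.3, 26.2 and 23.2 CPM (1.38, SE 0.21, adjusted p = 0.0106 in edgeR). EXPA1, an expansin that loosens walls, read 67.9, 48.3 and 30.4 CPM against 123, 124 and 99.5 CPM (1.24, SE 0.26, adjusted p = 0.0465 in edgeR), and held in 5 of the 20 alternatives. ABCG18, an ABC transporter gene, rose by 1.17 (SE 0.21). In the fit without the third library of both groups AT5G32678 still passed, and AT2G44940, MYB7 and EXPA1 did not.

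Several processes tied to nitrogen supply had 0 calls in edgeR at day 2. These were the 260 tested cytosolic ribosomal protein genes (median −0.06), the 42 photosystem and antenna genes (−0.04), the 20 Calvin-Benson genes (0.02), the 22 autophagy genes (0.12) and the 21 cell division genes (−0.06). The 24 jasmonate genes, 25 abscisic acid and cold genes, 20 clock genes and 6 genes of the phosphorylated serine pathway also had 0. At an unadjusted p under 0.05 there were 3 ribosomal protein, 1 photosystem, 1 autophagy, 3 jasmonate, 6 abscisic acid and cold, and 4 clock genes, and 0 in the other 3 lists. DESeq2 called 1 abscisic acid and cold gene and 1 clock gene and 0 of the rest. Differences were negative in 197 of the 260 ribosomal protein genes, 28 of the 42 photosystem genes and 18 of the 21 cell division genes. They were positive in 18 of the 22 autophagy genes and 11 of the 20 Calvin-Benson genes. Sulfur starvation genes had 0 of 16 calls in edgeR and in DESeq2 (2 at an unadjusted p under 0.05) with all 16 differences positive and a median of 0.29. Single members passed in others: the cytokinin oxidase gene CKX4 fell (−0.80, 1 of 15 cytokinin genes), as did the floral repressor TEM1 (−0.78, 1 of 15), the acyl-CoA-binding protein gene ACBP3 (−0.73, 1 of 6) and the phosphate-starvation gene GDPD1 (−1.04, 1 of 14). Without the third library of both groups CKX4 still passed (−1.09) and TEM1 (−0.64), ACBP3 (−0.72) and GDPD1 (−0.98) did not, and without the second mutant library none of the 4 passed. In simulated data with this design, 32.1% of genes changed 1.5-fold, 68.1% of those changed 2-fold and 95.8% of those changed 4-fold were recovered. The simulated counts were drawn gene by gene from means over all 12 libraries, without shifts that many genes of a library share. The shares therefore do not give the recovery in these lists, where smaller changes may have been missed.

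**Figure D4:**
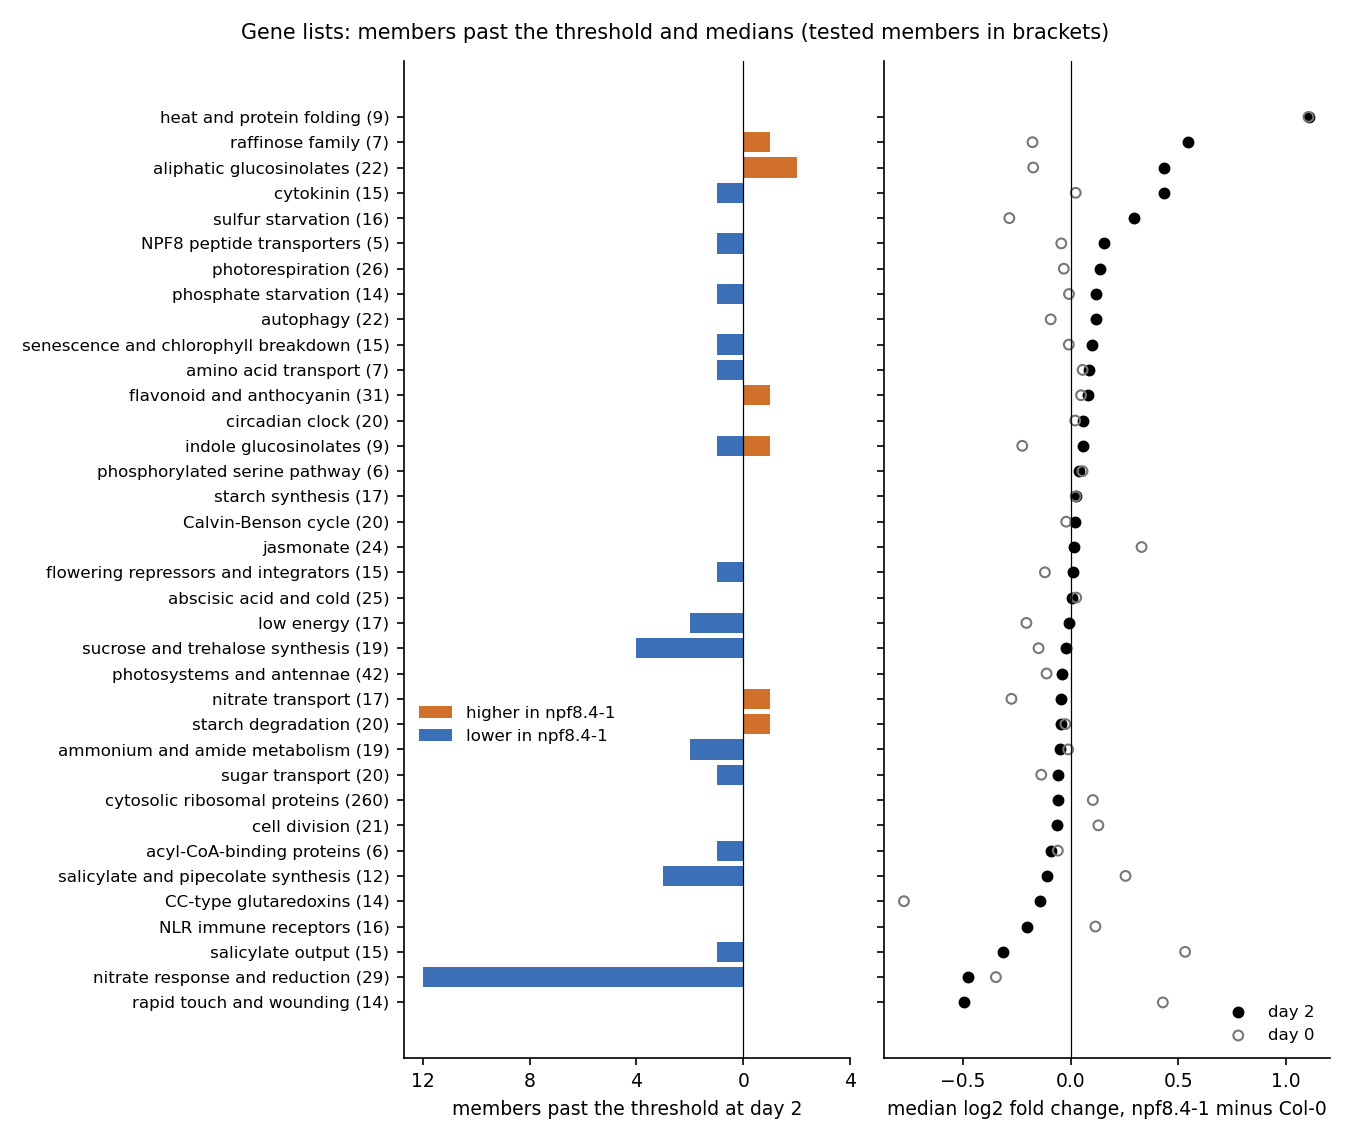
Left, the number of tested members of each gene list past the threshold at day 2 (bars to the left for lower and to the right for higher in npf8.4-1, tested members in brackets). Right, the median log2 fold change of each list (npf8.4-1 minus Col-0) at day 2 (filled) and day 0 (open); the nitrate response and reduction list has the longest bar, with 12 lower members.

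At day 0 the same comparison gave 29 calls (0.149%), 6 higher (0.0309%) and 23 lower (0.118%), beside 1450 genes (7.47%) at an unadjusted p under 0.05. Of the calls, 16 genes passed at both days (5.73% of the day 2 calls and 55.2% of the day 0 calls), each in the same direction. The days share no libraries, but they share the fit. The genes past the threshold at both days include NPF8.4, BT2, CYFBP, TPS11, ACBP3, the B-box gene BBX17, MEE14, the kinase gene AP4.3A, AT5G32678 and AT5G35935. AT5G35935 had 385, 352 and 354 reads in Col-0 and 24, 17 and 18 in the mutant at day 2. AT1G75945, named here after its values were seen, had 193 reads in the Col-0 libraries together and 3 in the mutant libraries at day 2, a ratio of 73.2 (95% counting interval 24.7 to 358). AT3G05955, an unclassified RNA gene chosen in the same way, had 56 and 1 reads, a ratio of 63.7 (95% counting interval 10.98 to 2561), and AT3G29644, another, had 108, 107 and 73 reads in Col-0 and 24, 41 and 32 in the mutant. The mutant is a single line, so for these loci the npf8.4-1 lesion and other differences between the lines cannot be told apart. AT1G48100, of the pectin lyase-like family, was higher at both days, by 1.27 and 1.03.

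Most of the day 2 genes were nearer to equal at day 0. The 185 lower genes had a median log2 difference of −1.08 at day 2 and −0.28 at day 0, 132 had the same sign at day 0 and 175 had the larger difference at day 2. The 94 higher genes had medians of 0.76 and 0.17, 71 had the same sign and 93 the larger difference at day 2. They were chosen by their day 2 values, so these counts are descriptions. The difference between the days was tested as an interaction, and 0 of 19416 genes (0%) passed in edgeR, with 1759 (9.06%) at an unadjusted p under 0.05 and 258 calls in DESeq2. The smallest unadjusted p-values, none of which passed (adjusted p = 0.170 in edgeR), belonged to AT5G25170 (−1.19), CPK4 (−1.08), AT1G53430 (−0.77), AT5G57887 (0.96) and AAP5 (−1.30). For NIA2 the interaction was −0.99 (SE 0.26, unadjusted p = 0.00204 in edgeR), for AT1G25550 −1.33 (SE 0.25, unadjusted p = 0.000178 in edgeR), and for NIA1 −0.70 (SE 0.35, unadjusted p = 0.0727 in edgeR).

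**Figure D5:**
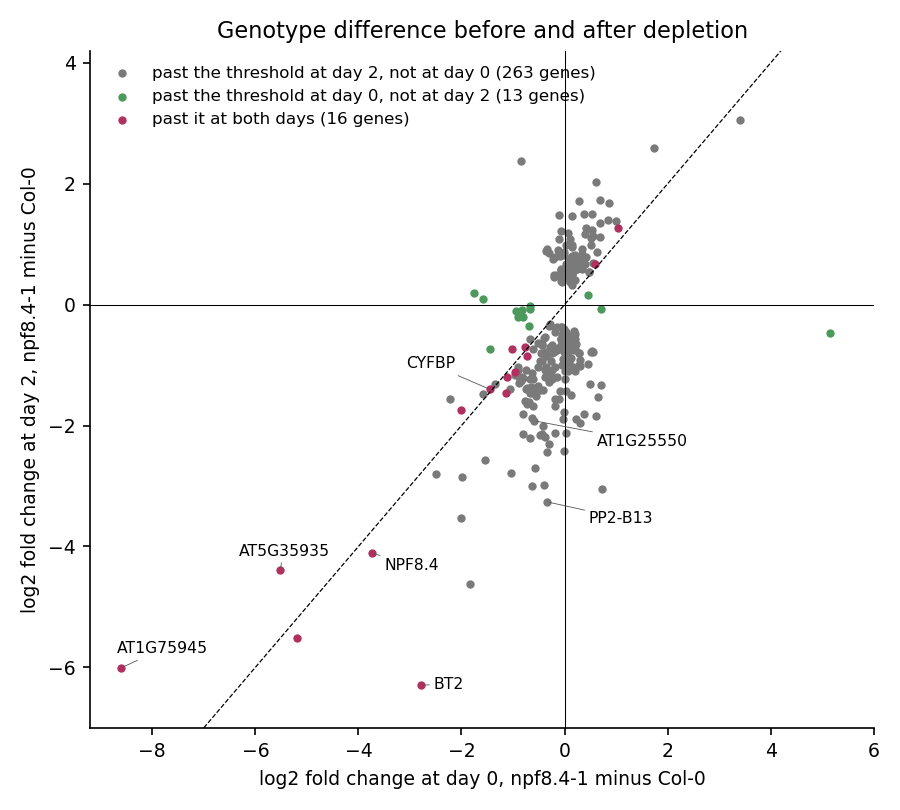
Log2 fold change between genotypes (npf8.4-1 minus Col-0) at day 0 (x axis) and at day 2 (y axis) for genes past the threshold at either day; the dashed line marks equal differences, and AT5G32678, at 12.79 and 13.30, lies outside the axes. Most of the 263 genes called at day 2 alone (grey) lie along the vertical axis, a place that their choice by calls at day 2 and not at day 0 favours. The 16 called at both days (red) include NPF8.4 and CYFBP near the dashed line and BT2, AT5G35935 and AT1G75945 away from it.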

How the data were processed

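Groups were taken from the titles and labels of the samples. The authors deposited, for each library, the exon read count of 37242 genes, per the file headers, with TPM and RPKM values beside it. The counts were tested, TPM was used for levels per length, and the deposited RPKM values were not used. Per the labels, the RNA was poly(A) RNA from a TruSeq stranded kit. Per the submitters' processing notes, bcl2fastq 2.17.1.14 and TAIR10 were used; no source used here gives the aligner, the counting program or its strand setting, so overlapping and antisense genes may share reads. Replicates are described as biological pools.

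All 12 libraries entered 1 edgeR 4.0.16 quasi-likelihood fit (R 4.3.3, limma 3.58.1) with 4 group means, TMM scaling, filterByExpr and robust dispersion. Adjusted p-values are Benjamini-Hochberg values over 19416 genes, with a threshold of 0.05, and all tests are two-sided. CPM divides counts by the TMM-scaled library total, per 1000000. Intervals and floors on counts cover counting error only. The alternatives were DESeq2 size factors, library totals, the DESeq2 1.42.0 test, no filter, a filter of 1 CPM, the 2 groups alone, a replicate block, each library left out, and the third library of both day 2 groups left out. No 2 libraries of a group differed by as little as sampling noise. Simulated data tested the fit, with 199 changed genes.

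Named genes were NPF8.4, the 15 largest increases and decreases past the threshold with mean CPM of 5 or more in the higher group and groups that did not overlap (at most 5 without a symbol per direction), up to 4 members per list, the 5 smallest interaction p-values, and 11 genes given always. Further list members, the families and the genes called at both days were named after their values were seen. The members and lists were chosen with earlier results of these data known. Of the 37242 genes, 36810 matched the RefSeq TAIR10.1 gene table, 36806 with the same start and end.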

Additional observations from a re-analysis of the deposited data

How the results depend on the processing

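The day 2 count of 279 genes was 246 to 285 with DESeq2 size factors, library totals, no filter or a filter of 1 CPM. It was 755 (243 higher, 512 lower) with the DESeq2 test, 130 (31 and 99) in a fit of the 2 groups alone and 44 without the third library of both day 2 groups. With 1 library left out it ran from 29 to 375, and was 29 without the second npf8.4-1 day 2 library, 88 without the third, 178 without the second Col-0 day 2 library and 162 without the third. The interaction count of 0 was 258 (52 and 206) with the DESeq2 test and 0 to 6 with 1 library left out, the 6 without the first Col-0 day 2 library. The day 0 count of 29 was 223 with the DESeq2 test and 12 to 37 with 1 library left out, 12 without the first or the second Col-0 day 0 library; it was 13 or 17 without the second or the third npf8.4-1 day 0 library, 16 without the second Col-0 day 2 library, and 18 or 15 without the second or the third npf8.4-1 day 2 library. The causes were not tested. Libraries with the same replicate number deviated from their group means with correlations of 0.22, −0.10 and 0.42 at day 2 and 0.14, −0.05 and 0.06 at day 0. Not every library correlated best with its own number. These values are too few to settle whether the numbers pair the libraries. With the replicate block the counts were 609 (267 and 342) at day 2, 161 at day 0 and 39 for the interaction. In that fit AAP5, WRKY18 and CKX4 no longer passed. Some lists gained calls: 2 photorespiration genes, 2 sucrose and trehalose genes, 1 NPF8 gene and 1 amino acid transporter were higher. Of the nitrate transporters 1 was lower. For 123 named genes and 2458 combinations of gene and alternative, 1828 stayed on their side of the threshold, 630 no longer passed and 0 changed sign. Of the 279 genes, 23 (5 higher, 18 lower) passed in all 20 alternatives, among them NPF8.4, AT1G25550, CYFBP, MYB34, WAKL2 and CDPK1. Depth limits the values of BT2, LBD39 and AT1G75945, which rest on few reads.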

Other observations

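Families picked after the values were seen held further day 2 differences, given as counts with no test of the family. The background over all tested genes is 0.953% lower and 0.484% higher. Of 12 tested LOB domain genes 4 fell, LBD41 (4.84, 1.89 and 3.75 CPM in Col-0, 1.67, 1.18 and 1.26 CPM in npf8.4-1) beside LBD37, LBD38 and LBD39. Of 20 VQ motif genes, whose products bind WRKY factors, 3 fell, and of 42 WRKY genes 2 fell, WRKY11 (128, 129 and 148 CPM against 91.2, 87.4 and 95.2 CPM) and WRKY18. Of 84 genes annotated as EF-hand, calmodulin, calmodulin-like or calmodulin-binding proteins 5 fell, among them CML42 (−0.84). Of 18 expansin genes 3 rose, EXPA1, EXPA8 (73.2, 60.7 and 67.1 CPM against 90.3, 97.7 and 93.9 CPM) and EXPA15 (7.63, 9.28 and 8.23 CPM against 10.9, 15.6 and 19.7 CPM). Without the third library of both groups 0 of these expansin, EF-hand and calmodulin-related, WRKY and LOB genes passed and 1 VQ gene did.

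Gibberellin genes changed in both directions among 5 tested oxidases. GA20OX1, a step of gibberellin synthesis, rose from 1.44, 1.73 and 1.36 CPM in Col-0 to 3.91, 3.47 and 3.57 CPM in npf8.4-1 (log2 difference 1.27, adjusted p = 0.0171 in edgeR). GA3OX1, the step that yields active gibberellin, fell from 5.90, 2.47 and 4.44 CPM to 2.07, 1.15 and 1.56 CPM (−1.42, adjusted p = 0.0486 in edgeR). GA2OX2, which inactivates gibberellin, fell from 6.70, 8.3996 and 14.4 CPM to 3.25, 2.69 and 2.46 CPM (−1.80, adjusted p = 0.0245 in edgeR). Of 64 genes whose annotated name begins with MYB domain protein, which leaves out PAP1, 4 rose and 4 fell. MYB16, a regulator of the cuticle, was among those that rose, at 24.0, 25.8 and 27.3 CPM against 37.1, 38.4 and 37.2 CPM (0.55, adjusted p = 0.00355 in edgeR). The purine permease gene PUP18 stood at 237, 215 and 275 CPM in Col-0 and 106, 79.1 and 72.9 CPM in the mutant (−1.50, adjusted p = 0.0168 in edgeR). Without the third libraries none of GA20OX1, GA3OX1, GA2OX2 and PUP18 passed, and MYB16 did.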
